A study of Ogataea parapolymorpha with 8 samples.

Results

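Methanol oxidation in yeasts that can live on methanol rests on a short set of enzymes, and 6 genes for it were followed in Ogataea parapolymorpha growing on glucose. The 6 genes were found among the 5428 genes of the deposited annotation, 3 by their gene identifier and 3 by the homolog in Saccharomyces cerevisiae that the annotation gives. By identifier came OPAR_002900, the gene with alcohol oxidase domains, FDH1 (OPAR_005301, formate dehydrogenase) and OPAR_000368, a gene with transketolase domains. By homolog came CTA1 (OPAR_000723, catalase), SFA1 (OPAR_004689, glutathione-dependent formaldehyde dehydrogenase) and OPAR_002283, the homolog of YJL068C, an S-formylglutathione hydrolase. No expression value was used to choose them, but the set was chosen with earlier results of these data known.

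Methanol is oxidised to formaldehyde in peroxisomes by alcohol oxidase, which passes its electrons to oxygen and makes hydrogen peroxide, and catalase removes that peroxide in the same organelle. Formaldehyde then takes one of 2 routes. In the cytosol it binds glutathione and is oxidised through S-formylglutathione to formate and on to carbon dioxide, with NADH gained at the dehydrogenase steps, and in the peroxisome it is joined to xylulose 5-phosphate by dihydroxyacetone synthase, an enzyme of the transketolase family. In methylotrophic yeasts such as Ogataea these genes are known to be repressed by abundant glucose and to rise when glucose becomes scarce, and more so with methanol. No methanol was named in any culture here.

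All 6 genes have 1 exon and none overlaps another gene in the deposited annotation. That annotation is of strain DL-1, and its genome build was not named in the labels or headers used here. OPAR_002900 lies on Chr_05 from 196417 to 198411 on the minus strand. FDH1 lies on Chr_07 from 1336593 to 1337681 on the minus strand, and SFA1 on the same chromosome from 288058 to 289200, also on the minus strand. CTA1, which the annotation names PXP9, a peroxisomal catalase, lies on Chr_02 from 175134 to 176657 on the minus strand. OPAR_002283 lies on Chr_04 from 543739 to 544620 on the plus strand, and OPAR_000368 on Chr_01 from 628165 to 630234 on the minus strand. The annotation names SFA1 as FLD1, S-(hydroxymethyl)glutathione dehydrogenase, and calls OPAR_002900, FDH1, OPAR_000368 and OPAR_002283 hypothetical proteins.

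Polyadenylated RNA was sequenced from bioreactor cultures and gave 8 libraries in 4 groups of 2. The treatment labels do not give the glucose left over in any culture. Strain CBS11895, the wild type, was kept in chemostats in both of its groups, where the dilution rate of 0.1 per h sets the growth rate. One, labelled micro-aerobic, had a feed of 20 g/L glucose with 420 mg/L Tween 80. For the other, labelled aerobic, the feed held 7.5 g/L glucose with 84 mg/L Tween 80. Both had urea medium, pH 6, 10 mg/L ergosterol and pluronic acid against foam. The mutant groups were strain IMX2167, labelled as deleted for GUT2 and for NDI and NDE genes, and had air and 7.5 g/L glucose. One mutant group was a batch at pH 6, and the other a chemostat of pH 5 diluted at 0.1 per h. For the mutant the labels name neither Tween 80, ergosterol nor urea. Strain and medium thus differ together in every comparison of mutant with wild type, along with mode of culture for the batch and pH for the mutant chemostat. Against the libraries labelled micro-aerobic, both mutant groups also differ in glucose (7.5 against 20 g/L) and in the oxygen label. Within the mutant, mode of culture and pH differ together, and within the wild type glucose feed, Tween 80 and oxygen do. The parts of such factors cannot be told apart.

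Libraries held 6104949 to 11126081 counts in genes. The genotype labels were checked by GUT2, at 349 and 387 CPM (counts scaled to a common library size) in the wild-type groups against 103 and 28.6 in the mutant batch and chemostat, and by NDE1, at 53.7 and 69.2 against 4.94 and 0.511. Both genes were lower in the mutant, but GUT2 still had 976 and 1084 counts in the batch libraries and 303 and 309 in the mutant chemostat libraries. The counts alone thus do not show a full deletion of the counted gene, and the source of these reads was not tested. In the batch GUT2 was higher than in the mutant chemostat by 1.85 ± 0.14 and NDE1 by 3.23 ± 0.34 (adjusted p = 1.64e-07 and 4.51e-06). "Mutant" is used here for the label, and the part of these residual counts in differences between batch and chemostat was not tested. The oxygen labels went against 4 genes of oxygen-dependent sterol and haem synthesis. HEM13, which in S. cerevisiae rises when oxygen is low, stood at 58.8 CPM in the libraries labelled micro-aerobic but at 1148 with the aerobic label, and ERG25 at 15.0 and 3631. ERG11 and ERG3 differed the same way, and OLE1, also listed, was lower with the micro-aerobic label by 0.47 ± 0.14. Both mutant groups were labelled aerobic. In the mutant batch and chemostat HEM13 stood at 133 and 86.5 CPM, ERG25 at 43.9 and 17.8, ERG11 at 410 and 246, and ERG3 at 298 and 277. OLE1 stood there at 1209 and 1664, below its 3582 and 4954 with the micro-aerobic and the aerobic label. No deposited measurement of oxygen was used here, so every result within the wild type is given by label, and with the labels exchanged its direction would be the opposite and each comparison with the mutant would belong to the other wild-type group. CPM is a share of a library, so a change in the RNA per cell cannot be told apart from a change in a gene's own transcript. Changes are log2 differences ± SE from edgeR's quasi-likelihood test on all 8 libraries, with p-values adjusted by Benjamini-Hochberg over the 5265 genes tested. "Rose" and "fell" are kept for an adjusted p below 0.05. All 6 genes passed the filter on low counts.

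The genes split into 3 patterns. OPAR_002900 and FDH1 were among the most abundant transcripts of the mutant chemostat and of the libraries labelled micro-aerobic, and far lower in the mutant batch and the libraries labelled aerobic. CTA1, SFA1 and OPAR_002283 were highest in the same 2 groups, with smaller differences from the others, at most 3.08 on the log2 scale. OPAR_000368 was close to undetected everywhere and highest in the batch, where OPAR_002900, FDH1 and OPAR_002283 had their lowest means. Together the 6 genes took 1.63% and 1.83% of all counts in the mutant chemostat, 0.222% and 0.228% in the batch, 0.142% and 0.149% with the aerobic label, and 1.85% and 1.89% with the micro-aerobic label.

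**Figure D1:**
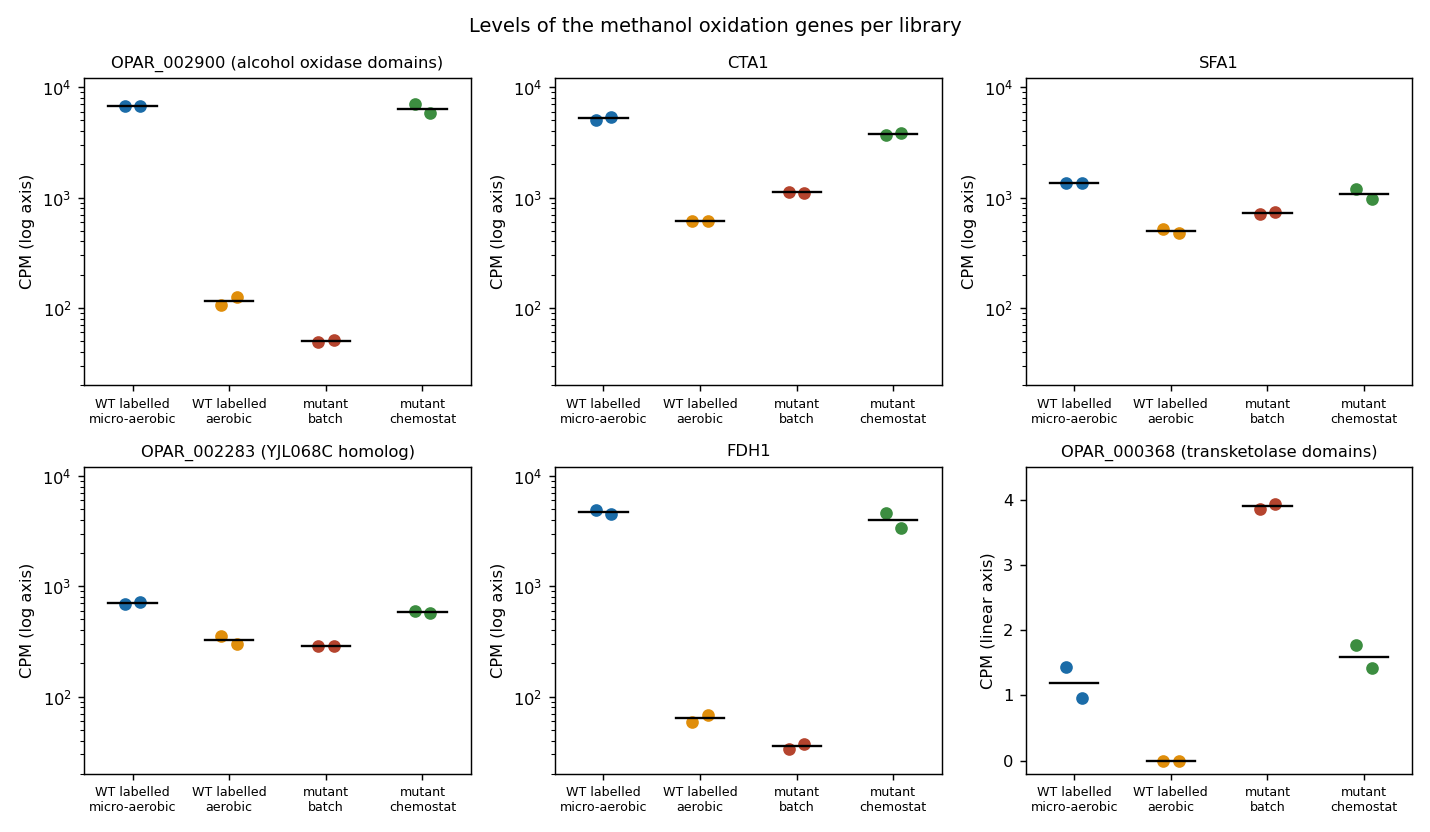
Level of each gene in CPM (vertical axis, logarithmic except for OPAR_000368, where it is linear) in the 4 groups of 2 libraries. Points are libraries and bars are group means. OPAR_002900 and FDH1 lie near or above 3368 CPM in 4 libraries and at or below 125 in the other 4, whereas OPAR_000368 stays below 4 CPM.

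Of the 6 genes, 6 were called in the wild-type comparison, as were 45.5% of all genes. Likewise 6 passed between mutant batch and mutant chemostat, where 51.4% of all genes did, and 6 between the mutant chemostat and the libraries labelled aerobic, where 60.7% did. Between mutant batch and the libraries labelled micro-aerobic 6 passed, with a background of 43.8%. Between mutant batch and those labelled aerobic 5 passed, with a background of 48.2%. Between mutant chemostat and the libraries labelled micro-aerobic 1 passed, with a background of 27.1%. Counts of calls in the set are to be read against those shares. These 6 comparisons are made from 4 groups and share libraries, so they are not independent of one another.

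Alcohol oxidase, the entry to the pathway, is represented by a single gene, since no gene other than OPAR_002900 carried both of its domains. OPAR_002900 stood at 6719 and 6698 CPM in the libraries labelled micro-aerobic, against 106 and 125 with the aerobic label, 49.4 and 51.7 in the mutant batch, and 6989 and 5822 in the mutant chemostat. The 2 high groups overlapped each other, and the 2 low groups lay far below them and apart from each other. Ranked by CPM per kb of gene length, OPAR_002900 was at places 27 to 33 of the genes tested in the mutant chemostat and 37 to 41 in the libraries labelled micro-aerobic. With the aerobic label it was at places 2433 to 2686, and in the batch at 3859 to 3908.

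OPAR_002900 was higher in the libraries labelled micro-aerobic than in those labelled aerobic by 5.86 ± 0.19 (58.0-fold, adjusted p = 2.33e-11). In the mutant it fell by 6.98 ± 0.20 from chemostat to batch (adjusted p = 9.35e-12), a 127-fold difference and the 11th largest of the 5265 genes. The mutant chemostat exceeded the libraries labelled aerobic by 5.79 ± 0.19 (adjusted p = 1.82e-11). Both were labelled as aerobic chemostats at the same glucose feed and dilution rate, but they differed by label in strain, pH and medium. The aerobic label of the wild type also went against the genes of sterol and haem synthesis given above. The part of each of these factors in the difference was not tested. Against the libraries labelled micro-aerobic the mutant chemostat differed by -0.07, with a 95% interval from -0.39 to 0.25 (adjusted p = 0.765). That sign rests on the library left in: the difference was 0.07 without mutant chemostat replicate 2 and 0.01 with upper quartile scaling. Between the 2 low groups OPAR_002900 was lower in the batch by 1.19 ± 0.16 (adjusted p = 3.74e-05).

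Catalase, which disposes of the peroxide that alcohol oxidase makes, is also coded by 1 gene, CTA1. CTA1 stood at 5038 and 5389 CPM in the libraries labelled micro-aerobic, against 617 and 618 with the aerobic label, 1122 and 1100 in the mutant batch, and 3725 and 3840 in the mutant chemostat. No groups overlapped, and the batch lay above the libraries labelled aerobic, unlike for OPAR_002900. CTA1 was higher by 3.08 ± 0.14 in the libraries labelled micro-aerobic than in those labelled aerobic (adjusted p = 7.04e-10) and fell by 1.77 ± 0.14 from mutant chemostat to batch (adjusted p = 2.04e-07). From the libraries labelled aerobic it rose by 2.62 ± 0.14 to the mutant chemostat and by 0.85 ± 0.13 to the batch (adjusted p = 2.88e-09 and 1.63e-04).

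CTA1 was the 1 gene of the set called between the mutant chemostat and the libraries labelled micro-aerobic, lower in the chemostat by 0.46 ± 0.13 (adjusted p = 0.024). The call was lost without replicate 1 or 2 of the libraries labelled micro-aerobic (adjusted p = 0.0844 and 0.208), without replicate 1 or 2 of the batch (0.0589 and 0.0595) and without mutant chemostat replicate 1 (0.0971). Both mutant chemostat libraries lay below both libraries labelled micro-aerobic.

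SFA1 codes for the enzyme that oxidises the adduct of formaldehyde and glutathione, a step needed for detoxification in cells that use no methanol as well. SFA1 stood at 1349 and 1343 CPM in the libraries labelled micro-aerobic, against 523 and 473 with the aerobic label, 702 and 733 in the mutant batch, and 1196 and 965 in the mutant chemostat. The groups did not overlap, and their order was that of CTA1 over a narrower span. SFA1 was higher by 1.43 ± 0.15 in the libraries labelled micro-aerobic than in those labelled aerobic (adjusted p = 2.39e-06) and by 1.12 ± 0.14 in the mutant chemostat than in the latter. From mutant chemostat to batch it fell by 0.59 ± 0.14 (adjusted p = 0.00358), a call lost without batch replicate 1 (0.0579). From the libraries labelled aerobic to the batch it rose by 0.53 ± 0.14 (adjusted p = 0.00774), a call lost without batch replicate 2 (0.0749). Its difference between mutant chemostat and the libraries labelled micro-aerobic was -0.32, with a 95% interval from -0.62 to -0.01 before adjustment (adjusted p = 0.111).

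OPAR_002283 codes for the homolog of the S-formylglutathione hydrolase, which frees formate from glutathione. It stood at 691 and 725 CPM in the libraries labelled micro-aerobic, against 351 and 299 with the aerobic label, 288.2 and 289.9 in the mutant batch, and 601 and 572 in the mutant chemostat. The low groups lay next to each other without overlap, and so did the high ones. OPAR_002283 was higher by 1.12 ± 0.13 in the libraries labelled micro-aerobic than in those labelled aerobic (adjusted p = 1.1e-05) and fell by 1.02 ± 0.13 from mutant chemostat to batch (adjusted p = 2.7e-05). From the libraries labelled aerobic to the mutant chemostat it rose by 0.85 ± 0.13 (adjusted p = 9.62e-05). Neither the pair of low groups nor the pair of high groups passed the test. Batch and the libraries labelled aerobic differed by -0.17, with an interval from -0.45 to 0.11, and the mutant chemostat and those labelled micro-aerobic by -0.27, with an interval from -0.55 to 0.01 (adjusted p = 0.304 and 0.135).

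Formate dehydrogenase takes formate to carbon dioxide and closes the oxidation route. FDH1 stood at 4879 and 4533 CPM in the libraries labelled micro-aerobic, against 59.3 and 68.2 with the aerobic label, 33.3 and 37.5 in the mutant batch, and 4643 and 3368 in the mutant chemostat. As for OPAR_002900, the 2 high groups overlapped and the 2 low groups did not. FDH1 was higher by 6.20 ± 0.21 in the libraries labelled micro-aerobic than in those labelled aerobic (73.7-fold) and fell by 6.82 ± 0.22 from mutant chemostat to batch (113-fold), with adjusted p = 3.45e-11 and 3.54e-11. The mutant chemostat exceeded the libraries labelled aerobic by 5.97 ± 0.21 and differed from those labelled micro-aerobic by -0.23, with an interval from -0.59 to 0.12 (adjusted p = 0.307). Between the low groups FDH1 was lower in the batch by 0.85 ± 0.18 (adjusted p = 0.00176).

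Formate dehydrogenase is a member of a wider family of NAD-dependent 2-hydroxyacid dehydrogenases, and 4 other genes carried its paired domains. None reached the level of FDH1 in its high groups. SER33, an enzyme of serine synthesis, was lower by 0.82 ± 0.14 in the libraries labelled micro-aerobic than in those labelled aerobic and higher by 1.89 ± 0.14 in the batch than in the mutant chemostat, the reverse of FDH1. Over the groups OPAR_002434 had means of 102 to 249 CPM, OPAR_003781 of 82.1 to 102 and OPAR_002777 of 11.2 to 33.8. OPAR_002434 changed in the direction of FDH1 by less, 1.02 ± 0.15 between the wild-type groups and -0.43 ± 0.14 from mutant chemostat to batch. OPAR_002777 was higher in both, by 0.67 ± 0.22 and 1.14 ± 0.19, and OPAR_003781 was called in neither.

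**Figure D2:**
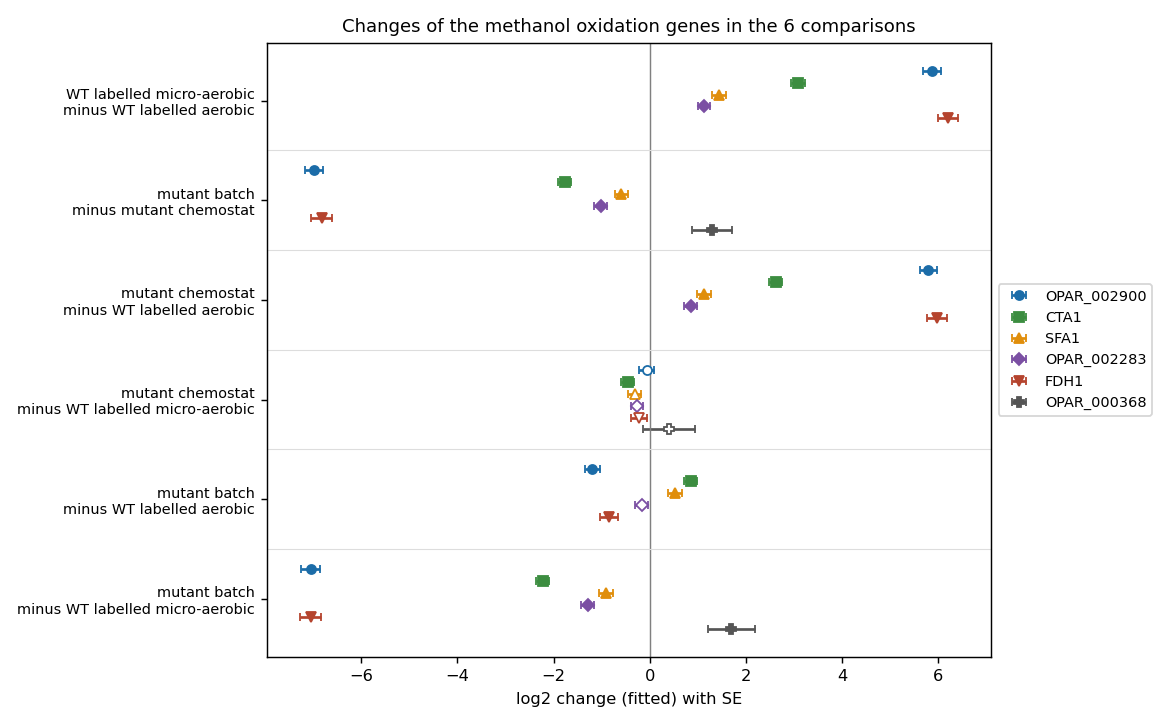
Log2 change of each gene with its SE (horizontal axis) in the 6 comparisons between 4 groups of 2 libraries, each direction as written on the vertical axis. Filled symbols have an adjusted p below 0.05, and OPAR_000368 is left out of comparisons with the libraries labelled aerobic, where it had 0 counts. OPAR_002900 and FDH1 lie side by side in all 6, at 5.86 and 6.20 between the wild-type groups, where CTA1 is at 3.08.

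The ratio between the steps changed with the group. Per kb of gene length, the level of FDH1 was 1.00 to 1.33 times that of OPAR_002900 in every library. Over the same libraries the level of CTA1 per kb was 0.698 to 1.05 times that of OPAR_002900 in the 2 high groups, 6.46 to 7.61 times in the libraries labelled aerobic, and 27.9 to 29.7 times in the batch. SFA1 went from 0.289 to 0.350 times OPAR_002900 per kb in the high groups to 24.7 to 24.8 times in the batch. OPAR_002283 went from 0.195 to 0.245 times per kb in the high groups to 12.7 to 13.2 times in the batch.

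OPAR_000368, whose domains are those of dihydroxyacetone synthase and of transketolases in general, had 9 and 6 counts in the libraries labelled micro-aerobic, against 0 and 0 with the aerobic label. It had 34 and 45 counts in the mutant batch and 18 and 16 in the mutant chemostat. In CPM these were 1.44 and 0.958, then 0 and 0, then 3.86 and 3.94, and then 1.77 and 1.41. The batch lay above all other libraries, and those labelled aerobic below all others.

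For the libraries labelled aerobic, 3 counts over the group were taken as the limit. OPAR_000368 was 15.1-fold above that limit in the batch, 6.11-fold in the mutant chemostat and 4.62-fold in the other wild-type group. These folds take the counts of the higher group as exact. From the summed counts of OPAR_000368 the batch had 2.47 times the level of the mutant chemostat, with a counting interval (95%) of 1.63 to 3.80. Against the libraries labelled micro-aerobic the batch had 3.26 times the level (1.86 to 6.101), and the mutant chemostat 1.32 times (0.701 to 2.61). The fitted rise from chemostat to batch was 1.29 ± 0.41 (adjusted p = 0.0194), and that from the libraries labelled micro-aerobic to the batch 1.69 ± 0.48 (adjusted p = 0.0129). The call against the mutant chemostat was lost with DESeq2 (adjusted p = 0.0933), without batch replicate 1 or 2 (0.0841 and 0.101) and without mutant chemostat replicate 2 (0.0827). That against the libraries labelled micro-aerobic was lost without their replicate 2 (0.106) and without batch replicate 1 or 2 (0.055 and 0.0686). At so few counts the direction was the same in every setting tried, but the call was not.

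A second gene, OPAR_000696 on Chr_02 from 134839 to 136971 on the minus strand, carried the same 4 domains as OPAR_000368 and is not among the 6. OPAR_000696 stood at 1521 and 1298 CPM in the libraries labelled micro-aerobic, against 48.8 and 48.3 with the aerobic label, 22.0 and 23.9 in the mutant batch, and 985 and 597 in the mutant chemostat. It followed the order of OPAR_002900 and FDH1, with the batch lowest. OPAR_000696 was higher by 4.86 ± 0.23 in the libraries labelled micro-aerobic than in those labelled aerobic (adjusted p = 7.33e-10) and fell by 5.10 ± 0.23 from mutant chemostat to batch (adjusted p = 7.96e-10). It was lower by 0.83 ± 0.19 in the mutant chemostat than in the libraries labelled micro-aerobic (adjusted p = 0.00818), a call lost without replicate 1 of the latter (0.0674). The files do not say which of these genes codes for dihydroxyacetone synthase.

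The third gene with transketolase domains, TKL1, a transketolase of the pentose phosphate pathway, lacked the high and low groups of OPAR_000696. TKL1 stood at 517 and 302 CPM on average in the libraries labelled micro-aerobic and aerobic, 1198 in the batch and 581 in the mutant chemostat. It rose by 1.04 ± 0.14 from mutant chemostat to batch (adjusted p = 4.45e-05). Per kb, OPAR_000696 had 661 CPM against 246 for TKL1 in the libraries labelled micro-aerobic, and 10.8 against 570 in the batch.

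**Figure D3:**
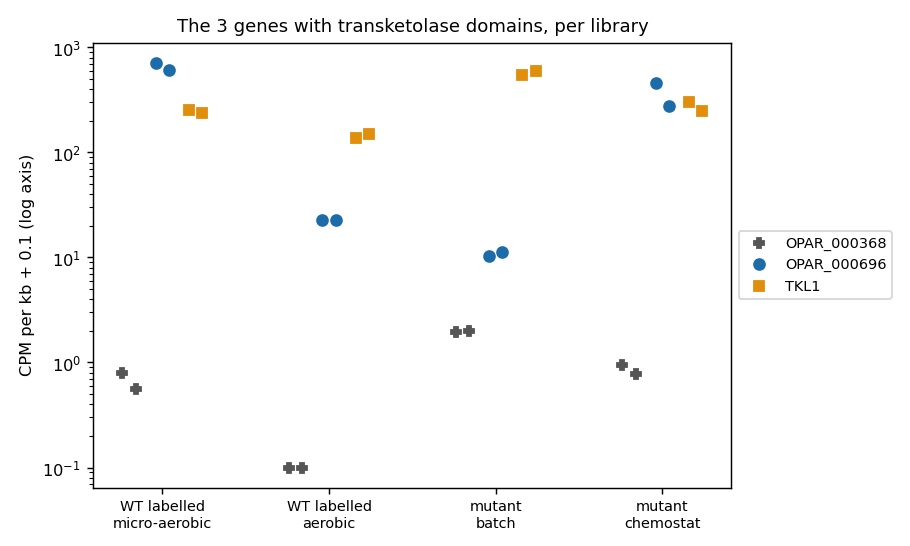
Level of the 3 genes with transketolase domains in each library, in CPM per kb of gene length plus 0.1 (logarithmic vertical axis), by group of 2 libraries. OPAR_000696 falls from a mean of 661 CPM per kb in the libraries labelled micro-aerobic to 10.8 in the mutant batch, whereas OPAR_000368 stays below 2 CPM per kb.

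OPAR_000368 lies between 2 genes that behaved otherwise. OPAR_000367, with the zinc cluster domain of fungal transcription factors, ends 20 bases away on the opposite strand, so reads that run past its end can be counted in OPAR_000368, because counting used no strand. OPAR_000367 had mean levels of 57.1 and 7.79 CPM in the libraries labelled micro-aerobic and aerobic, 15.1 in the batch and 105 in the mutant chemostat, and so was not highest where OPAR_000368 was. OPAR_000369, with sugar transporter domains, lies 122 bases away on the same strand as OPAR_000368. Its means were 121 and 1.85 CPM in the libraries labelled micro-aerobic and aerobic, 1.102 in the batch and 102 in the mutant chemostat. The part of run-on reads in the counts of OPAR_000368 was not tested.

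Which other genes had the profile of OPAR_002900 and FDH1 was asked by the root mean square difference of log2 CPM, each gene centred on its mean over the 8 libraries. FDH1 was the nearest of 5264 genes to OPAR_002900, and OPAR_002900 the nearest to FDH1, at 0.155. Among genes outside the set the order was the same for both: IDP2, OPAR_000369, OPAR_004673, OPAR_000696 and OPAR_000896. IDP2, a NADP-dependent isocitrate dehydrogenase, was at 0.411 from OPAR_002900 and 0.412 from FDH1. OPAR_000369 was at 0.462 from OPAR_002900, OPAR_004673 at 0.747, OPAR_000696 at 0.803 and OPAR_000896 at 0.806. The 8 libraries share 4 groups and these values are a description.

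IDP2 stood at 1320 and 1378 CPM in the libraries labelled micro-aerobic, against 15.4 and 11.4 with the aerobic label, 5.80 and 5.51 in the batch, and 1079 and 1258 in the mutant chemostat. It was higher by 6.66 ± 0.19 in the libraries labelled micro-aerobic than in those labelled aerobic and fell by 7.69 ± 0.20 from mutant chemostat to batch (adjusted p = 1.65e-11 and 7.79e-12). OPAR_004673 carries a ribose 5-phosphate isomerase domain, the activity that interconverts pentose phosphates, and lay below 1 CPM on average in both low groups. OPAR_000896, with no annotation, averaged 5749 CPM in the mutant chemostat and 2343 in the libraries labelled micro-aerobic, against 81.8 in the batch and 102 with the aerobic label. Of the other members, CTA1 came at place 74 from OPAR_002900, OPAR_002283 at 275, SFA1 at 365 and OPAR_000368 at 3882.

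**Figure D4:**
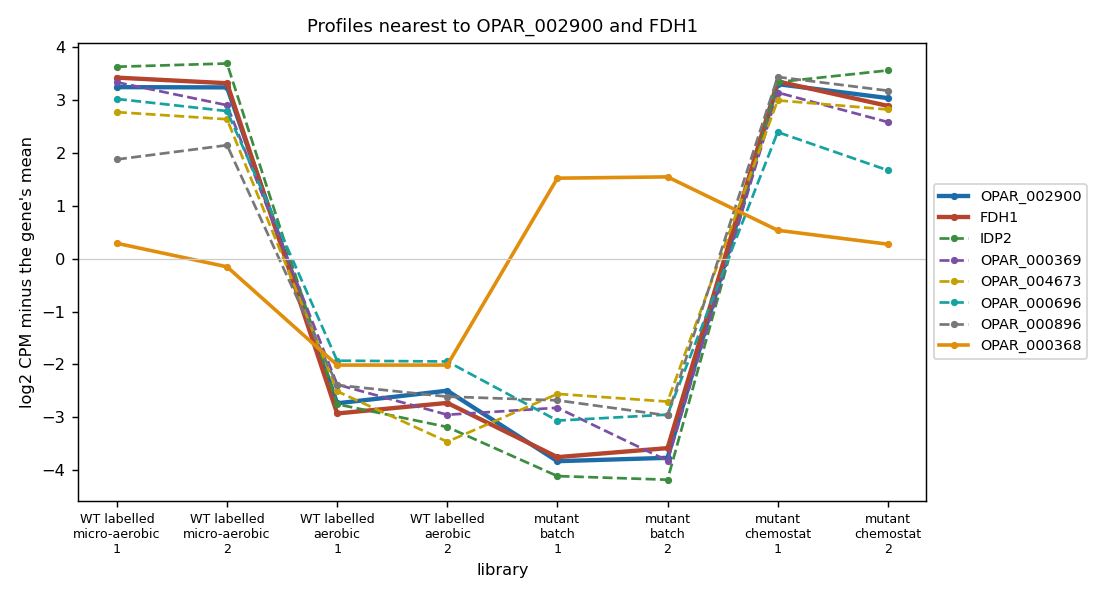
Log2 CPM minus each gene's mean over the 8 libraries (vertical axis) by library, with solid lines for OPAR_002900, FDH1 and OPAR_000368 and broken lines for the 5 genes outside the set that lie nearest to OPAR_002900 and FDH1. OPAR_002900 and FDH1, 0.155 apart, are nearly on 1 line. OPAR_000368 lies far above that line in the batch and below it in the mutant chemostat and the libraries labelled micro-aerobic.

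The 6 lists of related genes, given by S. cerevisiae homolog, were read beside the methanol oxidation genes. Between the wild-type groups 23.2% of all genes were called higher with the micro-aerobic label and 22.3% lower, and between mutant batch and chemostat 24.5% were called higher in the batch and 26.8% lower, and the counts of each list are to be read against those shares. Peroxins build the peroxisomes in which alcohol oxidase and catalase work, and 15 of 27 listed names had a gene. In the libraries labelled micro-aerobic against those labelled aerobic 8 were higher and 3 lower, with a median change of 0.42 beside 0.02 over all genes. Without replicate 1 or 2 of the libraries labelled micro-aerobic the count of lower peroxins was 0, and without replicate 2 of those labelled aerobic it was 1. In the batch against the mutant chemostat 0 were higher and 12 lower, with a median of -0.72 beside -0.02, and without batch replicate 2 there were 7 lower. PEX11, which drives peroxisome division, was higher by 3.13 ± 0.15 in the wild-type comparison and fell by 3.16 ± 0.15 from mutant chemostat to batch. Its mean levels were 984 and 112 CPM in the libraries labelled micro-aerobic and aerobic, 91.7 in the batch and 819 in the mutant chemostat. PEX13, part of the import machinery, changed by 0.93 ± 0.14 and -1.53 ± 0.14.

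Assimilation beyond dihydroxyacetone synthase uses dihydroxyacetone kinase and enzymes shared with glycolysis and the pentose phosphate pathway, and 7 of 11 names had a gene. Between the wild-type groups 5 were higher and 2 lower in the libraries labelled micro-aerobic (median 1.06 beside 0.02), and in the batch against the mutant chemostat 3 were higher and 3 lower (median 0.25 beside -0.02). DAK1, dihydroxyacetone kinase, was higher by 2.43 ± 0.26 in the libraries labelled micro-aerobic and fell by 2.07 ± 0.24 from mutant chemostat to batch. The glycolytic FBA1, fructose-bisphosphate aldolase, went the other way, by -1.54 ± 0.15 and 1.58 ± 0.15.

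Of the glutathione and peroxide list, 11 of 15 names had a gene. In the libraries labelled micro-aerobic 6 were higher and 1 lower (median 0.59), and in the batch 2 were higher and 4 lower than in the mutant chemostat (median -0.40). Without replicate 1 of the libraries labelled aerobic the wild-type comparison had 2 lower, and without batch replicate 1, batch replicate 2 or mutant chemostat replicate 2 the mutant comparison had 1 higher. Mitochondrial SOD2, superoxide dismutase, was higher by 2.47 ± 0.13 in the libraries labelled micro-aerobic and fell by 1.26 ± 0.13 from mutant chemostat to batch. CCP1, a peroxidase of mitochondria, changed by 1.76 ± 0.15 and -1.53 ± 0.15. The 6 of 11 called in the mutant comparison are near the 51.4% of all genes. TSA1, a cytosolic peroxiredoxin, went against CTA1, by -1.58 ± 0.17 and 2.59 ± 0.18.

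Beta-oxidation is the other peroxide-making pathway of yeast peroxisomes, and 7 of 10 names had a gene. Between mutant batch and chemostat 7 of 7 were lower in the batch, with a median of -2.46. POX1, acyl-CoA oxidase, fell by 3.43 ± 0.16 and FOX2, the multifunctional enzyme, fell by 3.27 ± 0.16. Between the wild-type groups 4 were higher and 1 lower in the libraries labelled micro-aerobic (median 0.70). The lower one was POX1 at -0.37 ± 0.14 (adjusted p = 0.04999), named for its count, and without any one of 5 libraries it was not called: replicates 1 and 2 labelled micro-aerobic, replicate 2 labelled aerobic and both of the batch. Nor was it called with upper quartile scaling or with only the wild-type groups in the fit. FOX2 was higher there by 1.63 ± 0.15. Against the libraries labelled micro-aerobic 7 of 7 were higher in the mutant chemostat (median 1.31), as were 13.7% of all genes, a pair of groups in which OPAR_002900, FDH1, SFA1 and OPAR_002283 did not pass the test and CTA1 was lower. Tween 80 was named in the labels of the wild type only, and its part in these differences was not tested.

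Of the regulators of glucose repression, 11 of 17 names had a gene. In the libraries labelled micro-aerobic 5 were higher and 1 lower, and in the batch 1 was higher and 5 lower than in the mutant chemostat, with medians of 0.31 and -0.27. These 6 of 11 called in either comparison are near the 45.5% and 51.4% of all genes. Without replicate 1 labelled aerobic or mutant chemostat replicate 2 the wild-type comparison had 3 lower, and without mutant chemostat replicate 1 it had 2. HXK2, the hexokinase that takes part in glucose repression in S. cerevisiae, was the one lower at -3.38 ± 0.17, and in the mutant it rose by 2.15 ± 0.16 from chemostat to batch. Its means were 178 and 1856 CPM in the libraries labelled micro-aerobic and aerobic, 835 in the batch and 189 in the mutant chemostat. ADR1, which activates genes of peroxisomes and alcohol use in S. cerevisiae, was higher by 2.01 ± 0.13 in the libraries labelled micro-aerobic and fell by 1.12 ± 0.13 from mutant chemostat to batch.

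The glyoxylate cycle and gluconeogenesis, which glucose also represses, gave 4 of 4 higher in the libraries labelled micro-aerobic and 4 of 4 lower in the batch than in the mutant chemostat, with medians of 4.40 and -3.22. ICL1, isocitrate lyase, had the largest change of the list between the wild-type groups, 8.38 ± 0.29, and fell by 3.87 ± 0.26 from mutant chemostat to batch. Its means were 728 and 2.29 CPM with the micro-aerobic and the aerobic label, 2.74 in the batch and 40.6 in the mutant chemostat. PCK1, phosphoenolpyruvate carboxykinase, changed by 4.22 ± 0.20 and -4.73 ± 0.20. MLS1, malate synthase, changed by 4.59 ± 0.15 and -2.57 ± 0.14. Between mutant chemostat and the micro-aerobic label, where OPAR_002900 and FDH1 did not pass the test, ICL1 differed by -4.16 ± 0.21, MLS1 by -1.98 ± 0.13 and PCK1 by 1.28 ± 0.17, so that the first 2 were lower in the chemostat and PCK1 higher (adjusted p = 8.79e-09, 1.20e-07 and 1.47e-04).

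**Figure D5:**
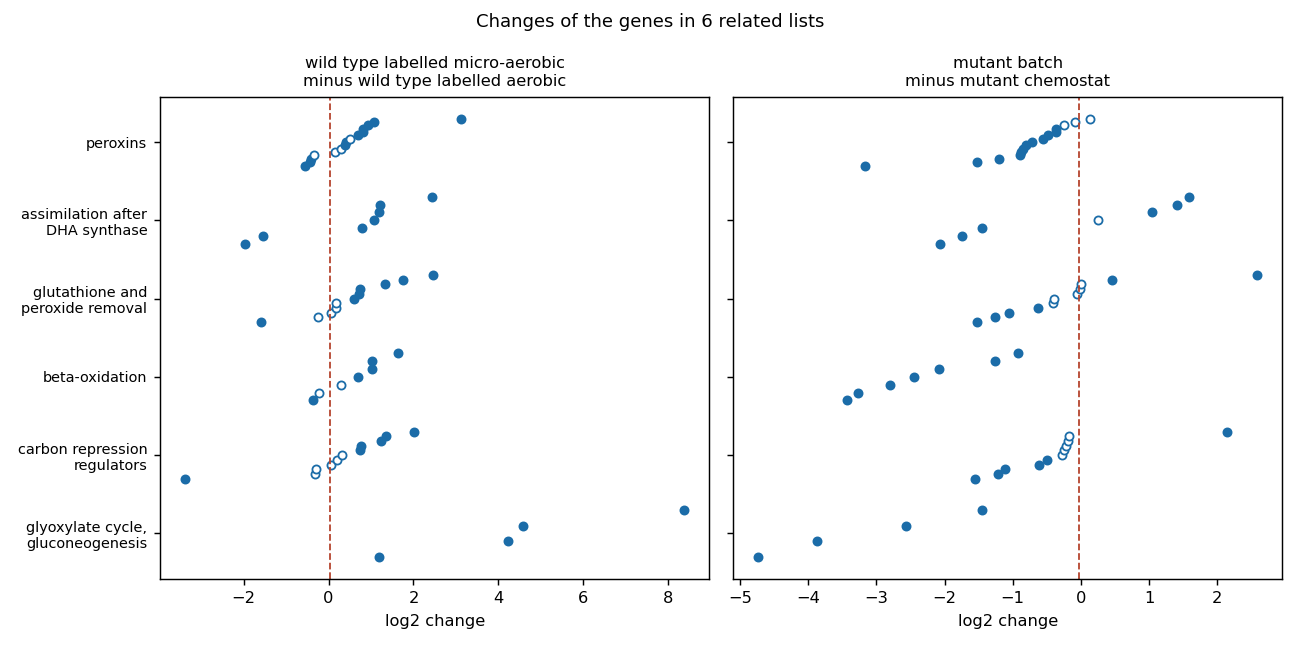
Log2 change of each gene of the 6 lists (horizontal axis) for the wild-type comparison (labelled micro-aerobic minus labelled aerobic) and for mutant batch minus mutant chemostat, with 2 libraries per group. Filled points have an adjusted p below 0.05 and the broken line is the median of all genes (0.02 and -0.02). In the batch 12 of 15 peroxins and 7 of 7 beta-oxidation genes were called lower, as were 26.8% of all genes. PEX19 lies to the right of the line there, at 0.13.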

How the data were processed

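The deposited table gives raw counts, in which the authors counted read pairs over genes. Per the file headers, featureCounts took pairs with both ends mapped over gene features, and no strand setting was used. The submitters' processing notes list featureCounts 1.6.0, edgeR 3.28.1, Bowtie 1.2.1.1 and SAMtools 1.3.1. Per the labels' protocols, libraries were made with a stranded kit after selection of polyadenylated RNA. Counts of 4 other columns belong to other libraries and were not used here. Names came from the deposited annotation and its S. cerevisiae homologs, and the locus tags of all 6 genes were found in the RefSeq gene table (assembly Hansenula_2).

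Groups were taken from the labels. The series text calls the replicates biological without saying how cultures were kept apart, so p-values cover the spread of these libraries alone. The test was run with edgeR 4.0.16 under R 4.3.3: filterByExpr kept 5265 genes, TMM factors were 0.859 to 1.12, and 8 libraries were fitted with a mean per group (4 residual degrees of freedom, common biological coefficient of variation 0.118). The two-sided quasi-likelihood F test was adjusted by Benjamini-Hochberg at 0.05. The SE was taken from F (size of the change divided by its root), and intervals of changes are 95%, unadjusted. CPM use TMM-scaled sizes, and profiles used log2 CPM with a prior count of 3. A gene at 0 in a group was set against 3 counts over the group (in single libraries 0.262 to 0.572 CPM). Such limits cover the counting error of the group at 0 only, and counting intervals cover counting error only.

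In simulated data, 96% to 99% of genes changed by 1 on the log2 scale were recovered over the 6 comparisons (5252 to 5258 genes each), and 100% of those changed by 2. Only 200 genes, drawn from those with a mean above 10 CPM, were changed there. In the data 27.1% to 60.7% of genes were called and OPAR_000368 lay below 10 CPM, so these rates do not cover that gene or changes so widespread. Alternatives were RLE and upper quartile scaling, no filter, DESeq2 1.42.0, only the groups compared, leaving out each library, and a replicate block for the mutant. Named genes were the 6 genes, the 5 nearest profiles outside the set, their neighbours, genes with the same domains, and up to 3 genes per list with the largest called change. The set, the lists and the tests were chosen with earlier results of these data known. POX1 in the wild-type comparison was named after its values were seen.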

Additional observations from a re-analysis of the deposited data

How the results depend on the processing

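Of 479 changes of the 6 genes recomputed under other settings, 463 kept their direction and their side of the threshold, 14 lost the call, as given with CTA1, SFA1 and OPAR_000368, and 2 turned sign. Both of the latter are OPAR_002900 between mutant chemostat and the libraries labelled micro-aerobic, at 0.0136 with upper quartile scaling and from -0.204 to 0.0684 as single libraries were left out; the cause was not tested. Without single libraries, that comparison had 280 to 2105 genes called and 0 to 1 of the set. The genes called then ran from 1593 to 2648 between the wild-type groups, 1745 to 2938 between mutant batch and chemostat, 1664 to 2829 between batch and the libraries labelled aerobic, and 1462 to 2608 between batch and those labelled micro-aerobic. A fit that leaves 1 library in a group assumes that it varies like the others. Batch and chemostat libraries of the mutant share title numbers, and deviations of same-numbered libraries had r = -0.245 over genes. With 2 libraries per group, a single such value cannot show whether the title number pairs the cultures. With a replicate block by that number 6 of the set and 2466 genes were called, and with the numbers crossed, tried after seeing the data, 6 and 3123. Upper quartile scaling shifted the median of all genes by 0.18 in mutant chemostat and 0.16 in batch against the libraries labelled aerobic, where higher and lower calls went from 1648 and 1547 to 2057 and 1180, and from 1262 and 1275 to 1729 and 978. For mutant chemostat against those labelled micro-aerobic they went from 722 and 703 to 943 and 492. The lower calls of peroxins between the wild-type groups were 1 under this scaling, and those of the regulators 2 with RLE scaling or DESeq2. Of the 6 genes OPAR_000368 is the one limited by depth, with at most 45 counts per library.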

Other observations

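OPAR_004673, with a ribose 5-phosphate isomerase domain (Chr_07, 263984 to 264688, minus strand), ends 89 bases before RKI1 (OPAR_004672, 263184 to 263894), the annotated ribose 5-phosphate isomerase, on the same strand. RKI1 averaged 175 and 76.2 CPM in the libraries labelled micro-aerobic and aerobic, and 91.1 and 307 in the batch and chemostat of the mutant. For OPAR_004673 the means were 48.6 CPM (labelled micro-aerobic), 0.635 (labelled aerobic), 0.848 (batch) and 56.1 (chemostat). Both were lowest in the same 2 groups, over a far wider span for OPAR_004673. These neighbours were picked after their values were seen.

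NUO51, a subunit of respiratory complex I, is the gene 544 bases from CTA1. Its level was 521 and 290 CPM in the libraries labelled micro-aerobic and aerobic, 254 in the batch and 505 in the mutant chemostat, and it fell by 0.99 ± 0.13 from mutant chemostat to batch (adjusted p = 3.2e-05 by edgeR's quasi-likelihood test). The other genes next to OPAR_002900, FDH1, CTA1, SFA1 and OPAR_002283 averaged at most 245 CPM in any group. Among them OPAR_005300, 318 bases from FDH1, changed by 1.31 ± 0.22 between the wild-type groups and -1.64 ± 0.20 from mutant chemostat to batch. OPAR_000724, 469 bases from CTA1, changed by 2.14 ± 0.30 and -0.78 ± 0.24, and OPAR_002901, beside OPAR_002900, by 0.89 ± 0.16 and -0.71 ± 0.15. Only OPAR_002899, also beside OPAR_002900, was called higher in the batch, by 1.29 ± 0.13.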
